A study of Mus musculus with 2 samples.

Results

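The lipid-associated macrophage genes are 10 genes, Gpnmb, Mmp12, Fabp5, Lgals3, Trem2, Cd9, Cd63, Itgax, Lpl and Spp1, of the 31053 listed in the expression matrices, and all 10 were present in both. They were chosen by name after earlier results of these data, in which Gpnmb and Mmp12 were among the leading genes of an unnamed group of cells, so their levels are given as a description and carry no test. RNA was measured by droplet single-cell sequencing (10x 3' v3) in YFP-positive cells sorted from enzymatically digested liver or lesions of mice lacking the Rb family (Rb1, Rbl1 and Rbl2) by Cre-mediated deletion of floxed genes. The model develops hepatocellular carcinoma. The macroscopic lesions gave 1 library, for which the labels give no number of mice. The early lesions gave 1 library in which 3 mice were pooled, and its cells cannot be assigned to single animals. All mice were untreated, YFP marks cells in which Cre was active, and the labels name neither the Cre driver nor the age of the animals. Whether each YFP-positive cell had lost Rb1, Rbl1 and Rbl2 was not tested. How macrophages, duct cells and T cells came to be in the YFP-positive sort was not tested. No test between stages could be made from 1 library each. Every interval in parentheses is a 95% interval that covers counting error only.

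Lipid-associated macrophages are cells that take up and break down lipid in obese adipose tissue, atherosclerotic plaques and the fatty or injured liver. Trem2 encodes a surface receptor for lipids and lipoproteins that signals through the adaptor Tyrobp, and the programme around it includes lysosomal, lipid-binding and matrix-degrading proteins. In the liver these genes are known from macrophages derived from recruited monocytes, which are distinguished from resident Kupffer cells by the absence of Clec4f, Cd5l, Marco and Timd4.

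The members lie on 9 chromosomes. Positions are those of GENCODE M21 on GRCm38, the assembly behind the mm10 build that the submitters' processing notes name. Gpnmb lies at chr6:49036546-49070929 and Cd9 on the minus strand at chr6:125460266-125494791, on the same chromosome but far apart. Trem2 lies at chr17:48346401-48354147, Itgax at chr7:128129547-128150657 and Cd63 at chr10:128900989-128912822. Fabp5 lies at chr3:10012548-10016607 and Lpl at chr8:68880491-68907448. Lgals3 lies at chr14:47367751-47386160, Mmp12 at chr9:7344381-7369499 and Spp1 at chr5:104435118-104441050, and all but Cd9 are on the plus strand. Each is a protein-coding gene, and the assay reads the 3' end of its transcripts. Mmp12 overlaps Mmp1b, and Cd9 overlaps Gm28809, on the opposite strand. The sources used here do not give whether counting used strand.

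The promoters of 4 members are printed because each holds a match to the same letter pattern. RefSeq windows of GRCm38.p6, from 250 bases before to 50 bases after a start, were found for 8 of the 10 members (10 windows, with a pair each for Mmp12 and Spp1), and not for Fabp5 and Lpl. Of 9 motifs searched on both strands, the pattern TGANTCA was in a window of 4 of the 8 members. It was in 7.81% of all 32851 windows. The pattern includes TGACTCA and TGAGTCA, the sites bound by the AP-1 factors Fos and Jun. The match is TGACTCA in Gpnmb, TGAGTCA in Itgax and Mmp12, and TGAATCA in Trem2, which is neither of these sites. The capitals mark this match. All 4 windows are on the plus strand, Gpnmb at chr6:49036268-49036567, Itgax at chr7:128129300-128129599, Mmp12 (the second of its windows) at chr9:7347124-7347423 and Trem2 at chr17:48346151-48346450.
Gpnmb: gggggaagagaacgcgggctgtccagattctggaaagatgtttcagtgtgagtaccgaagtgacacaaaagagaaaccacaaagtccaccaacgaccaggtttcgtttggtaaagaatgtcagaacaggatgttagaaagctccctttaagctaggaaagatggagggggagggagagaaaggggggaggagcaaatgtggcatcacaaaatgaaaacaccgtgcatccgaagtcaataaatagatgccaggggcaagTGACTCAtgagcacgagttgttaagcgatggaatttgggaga
Itgax: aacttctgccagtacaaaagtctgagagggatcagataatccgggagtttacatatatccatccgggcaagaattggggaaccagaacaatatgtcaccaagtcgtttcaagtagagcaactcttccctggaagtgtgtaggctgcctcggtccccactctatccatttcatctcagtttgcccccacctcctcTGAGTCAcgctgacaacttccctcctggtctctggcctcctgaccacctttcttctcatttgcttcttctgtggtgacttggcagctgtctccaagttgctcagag
Mmp12: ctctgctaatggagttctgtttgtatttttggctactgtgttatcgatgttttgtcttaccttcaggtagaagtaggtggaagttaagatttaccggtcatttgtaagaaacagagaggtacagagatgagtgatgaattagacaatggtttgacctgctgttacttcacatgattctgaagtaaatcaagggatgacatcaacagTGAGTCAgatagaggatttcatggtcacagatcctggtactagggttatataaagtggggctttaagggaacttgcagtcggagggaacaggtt
Trem2: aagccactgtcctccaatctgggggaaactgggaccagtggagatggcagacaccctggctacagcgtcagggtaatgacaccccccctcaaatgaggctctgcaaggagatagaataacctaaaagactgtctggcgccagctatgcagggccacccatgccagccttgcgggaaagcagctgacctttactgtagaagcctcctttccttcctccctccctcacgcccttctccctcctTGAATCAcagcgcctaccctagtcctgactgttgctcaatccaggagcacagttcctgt

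In these windows the match lies 56 bases before the RefSeq start of Itgax, 44 before that of Mmp12 and 9 before that of Trem2. In Gpnmb the match lies just after the RefSeq start. The RefSeq and GENCODE starts can differ, and the Gpnmb match lies before the GENCODE start given above. CACGTG, the E-box bound by the lysosomal regulators TFEB, TFE3 and MITF, was in no member's window and in 7.15% of all windows. CATGTG, the core of the longer M-box that MITF binds, was in windows of Cd9 and Mmp12 and in 14.2% of all windows. GAGGAAGT, a PU.1-type ETS sequence that contains the shorter GGAAGT, was in windows of Mmp12 and Spp1 and in 3.20% of all windows. GGAAGT itself was in windows of Cd63, Itgax, Mmp12 and Spp1 and in 23.8% of all windows. TATAAA was in windows of Mmp12 and Spp1 (13.6% of all windows), CCATNTT in windows of Cd63, Cd9 and Gpnmb (16.1%), and the repeats bound by LXR and PPAR in none (0.0152% and 0.0396%). A match describes letters in the window and says nothing of whether a factor is bound.

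The macroscopic library held 256 barcodes and 7271368 UMIs (distinct captured RNA molecules), and the early library 3221 barcodes and 12637053 UMIs. Barcodes with at least 1000 UMIs numbered 241 in the macroscopic library (median 14223 UMIs) and 2620 in the early library (median 2946), and no barcode sequence occurred in both libraries. The libraries also differed in sex, so stage and sex cannot be told apart: Xist had 0 UMIs in the macroscopic and 10149 in the early library, and the Y-linked Ddx3y had 275 and 0. Barcodes with at least 3 UMIs of C1qa, C1qb and C1qc, the complement genes of macrophages, were divided by Clec4f, Cd5l and Marco. Those with 0 to 2 UMIs of these Kupffer cell genes are called Kupffer-low C1q barcodes below, and those with at least 3 are called Kupffer-high. The macroscopic library had 24 Kupffer-low and 4 Kupffer-high C1q barcodes, and the early library had 202 and 1922. Hepatocyte barcodes (at least 0.5% of UMIs from Alb) numbered 103 in the macroscopic and 67 in the early library, and T cell barcodes (at least 2 UMIs of Cd3e and Trbc2) numbered 20 and 76. Duct barcodes (at least 2 UMIs of Krt19 and Krt7) numbered 1 and 101, and the single macroscopic one is not compared. Barcodes could be in more than 1 class, which held for 5 macroscopic and 17 early barcodes.

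Within the early library, 8 of the 10 members were at least 2-fold higher in Kupffer-low than in Kupffer-high C1q barcodes, 1 (Lpl) was at least 2-fold lower, and Mmp12 fell just short of 2-fold. Of all 10512 genes measured (at least 20 UMIs in the pair of sums), 6.07% passed 2-fold upwards and 21.1% downwards. The median log2 ratio was 3.18 over the members and -0.33 over all measured genes. The Kupffer-low barcodes were the deeper, with a median of 7545 UMIs against 2565 in Kupffer-high barcodes, so shares of barcodes are given after thinning each barcode to 1000 UMIs. At that depth 46.5% of Kupffer-low barcodes (39.5 to 53.7%) had a UMI of at least 5 members, against 1.35% of Kupffer-high barcodes (0.886 to 1.98%). T cell barcodes, given for comparison, had 2.63% (0.320 to 9.18%) at a median of 2678 UMIs before thinning. Whether T cells express any of the members themselves was not tested. Unthinned, the median number of members with a UMI was 7 in Kupffer-low, 2 in Kupffer-high and 0 in T cell barcodes.

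**Figure D1:**
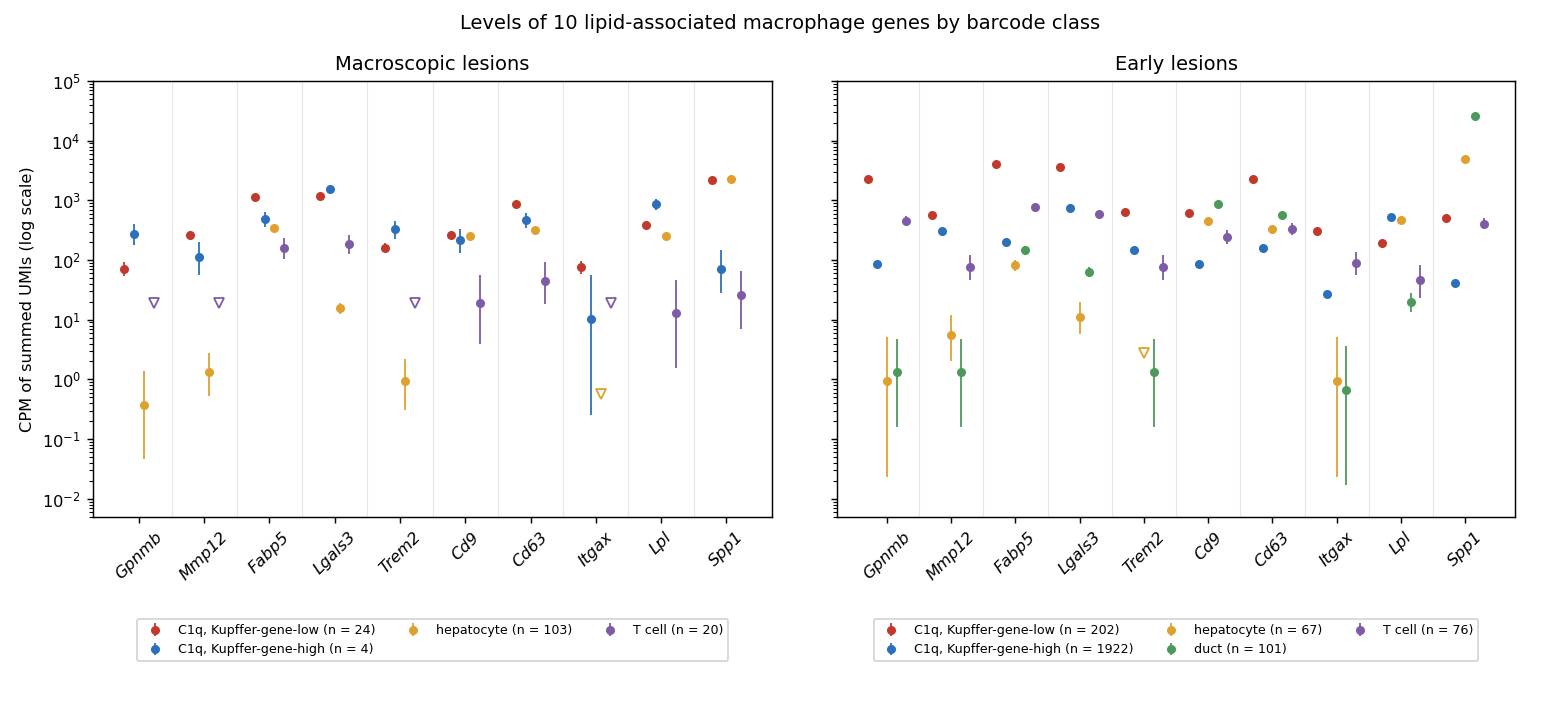
CPM of summed UMIs (log scale) of each of the 10 genes in the macroscopic library (left) and the early library (right), by barcode class. Points are the 1 summed value per class, bars are exact Poisson 95% intervals, and open triangles mark the limit that a count of 0 allows. In early lesions the Kupffer-low C1q barcodes (red) lead for Gpnmb at 2273 CPM, whereas Spp1 is highest in duct barcodes at 26238 CPM.

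The receptor Trem2 and the lysosomal glycoprotein Gpnmb marked the Kupffer-low barcodes to different extents. Trem2 had 644 CPM (605 to 686) in early Kupffer-low barcodes and 147 CPM (138 to 157) in Kupffer-high barcodes, 4.37-fold higher. After thinning it was seen in 44.6% (85.1% unthinned) of Kupffer-low and 7.96% (21.9% unthinned) of Kupffer-high barcodes, against 0% (3.95% unthinned) of T cell barcodes. A count of 0 in 76 T cell barcodes allows a share (3 counts of the total) of up to 3.95%. The UMIs of Trem2 were spread widely: 40 of 202 Kupffer-low barcodes held the upper 50% of them. Gpnmb had 2273 CPM (2198 to 2350.1) in Kupffer-low and 85.5 CPM (78.7 to 92.6) in Kupffer-high barcodes, 26.6-fold (24.4 to 29.1) higher. It was seen in 54.0% (77.2% unthinned) of thinned Kupffer-low, 2.29% (4.73% unthinned) of thinned Kupffer-high and 2.63% (3.95% unthinned) of thinned T cell barcodes. Gpnmb was patchier than Trem2, since 24 Kupffer-low barcodes held 50% of its UMIs and 46 of 202 had none.

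The tetraspanins and the integrin were higher in Kupffer-low barcodes too. Cd63, a tetraspanin of late endosomes and lysosomes, had 2244 CPM (2169 to 2320.2) in Kupffer-low and 158 CPM (149 to 168) in Kupffer-high barcodes, 14.2-fold (13.3 to 15.2) higher. Cd63 UMIs were found in 75.2% (95.5% unthinned) of thinned Kupffer-low, 4.53% (11.1% unthinned) of Kupffer-high and 1.32% (2.63% unthinned) of T cell barcodes. Cd9, a tetraspanin of the cell surface, had 619 CPM (579.8 to 659) and 86.0 CPM (79.2 to 93.2) in Kupffer-low and Kupffer-high barcodes, 7.19-fold (6.48 to 7.98) higher. Its thinned shares were 30.7% (76.2% unthinned) in Kupffer-low, 3.12% (11.4% unthinned) in Kupffer-high and 5.26% (11.8% unthinned) in T cell barcodes. Itgax, which encodes the integrin subunit CD11c of dendritic cells and some macrophages, had 310.3 CPM (283 to 339) in Kupffer-low and 27.1 CPM (23.4 to 31.3) in Kupffer-high barcodes, 11.4-fold (9.64 to 13.6) higher. The thinned shares of Itgax were 26.7% (62.4% unthinned) in Kupffer-low, 1.35% (3.90% unthinned) in Kupffer-high and 2.63% (5.26% unthinned) in T cell barcodes.

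The members that handle lipid differed in opposite directions. Fabp5, an intracellular carrier of fatty acids, had 4109.6 CPM (4009 to 4212) in Kupffer-low barcodes and 202 CPM (192 to 213) in Kupffer-high barcodes, 20.3-fold (19.2 to 21.5) higher. Fabp5 UMIs were found in 60.4% (79.2% unthinned) of thinned Kupffer-low, 3.33% (8.43% unthinned) of Kupffer-high and 3.95% (7.89% unthinned) of T cell barcodes. Lpl, the lipase that releases fatty acids from circulating triglycerides, had 191 CPM (169 to 214) in Kupffer-low barcodes and 526 CPM (509 to 543) in Kupffer-high barcodes, 2.76-fold (2.45 to 3.12) lower. The Lpl share of thinned barcodes was 15.3% (39.1% unthinned) in Kupffer-low and 36.6% (63.9% unthinned) in Kupffer-high barcodes, against 0% (2.63% unthinned) in T cell barcodes. Its UMIs were the least concentrated of the 10 in Kupffer-high barcodes, where 209 barcodes were needed to reach 50% of them, and Kupffer-high barcodes held 76.2% of the early library's Lpl UMIs. Lpl thus lay mainly in the other kind of C1q barcode, which goes against the name of the group in this library.

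Of the secreted members, Lgals3, a lectin that binds galactosides, had 3656 CPM (3561 to 3753) in Kupffer-low and 758 CPM (738 to 779) in Kupffer-high barcodes, 4.82-fold (4.64 to 5.01) higher. It was also common in Kupffer-high barcodes: it was seen in 81.2% (92.6% unthinned) of thinned Kupffer-low, 37.7% (63.9% unthinned) of Kupffer-high and 10.5% (13.2% unthinned) of T cell barcodes. Spp1, the secreted phosphoprotein osteopontin, had 512 CPM (477 to 549) in Kupffer-low and 41.1 CPM (36.4 to 46.1) in Kupffer-high barcodes, 12.5-fold (10.9 to 14.3) higher. Its Kupffer-low level rested on few barcodes: 5 held 50% of the UMIs, and 1 held 24.2%. The thinned Spp1 shares were 12.9% (32.2% unthinned) in Kupffer-low, 5.25% (13.5% unthinned) in Kupffer-high and 3.95% (9.21% unthinned) in T cell barcodes, so the Kupffer-high share was near that of T cells.

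Mmp12, the macrophage metalloelastase, was split between both kinds of C1q barcode. It had 577 CPM (539 to 616) in Kupffer-low and 303 CPM (289.8 to 316) in Kupffer-high barcodes, 1.91-fold (1.76 to 2.06) higher. Mmp12 UMIs were found in 22.3% (37.1% unthinned) of thinned Kupffer-low, 4.47% (7.23% unthinned) of Kupffer-high and 0% (1.32% unthinned) of T cell barcodes. The Kupffer-high barcodes, being many more, held 62.4% of the early library's Mmp12 UMIs, and Kupffer-low barcodes held 26.4%. Among the Kupffer-high barcodes, 39 with at least 10 Mmp12 UMIs carried 1846 of the 2086 UMIs, and 1783 had none. These 39 barcodes also had 808 CPM of Gpnmb, 1674 of Fabp5, 1413 of Cd63 and 391 of Itgax. The 1783 Kupffer-high barcodes without Mmp12 had 40.1 CPM of Gpnmb, 125 of Fabp5, 87.3 of Cd63 and 7.69 of Itgax. Lpl was also high in the 39 barcodes, at 1732 CPM against 455 CPM in the 1783. The 39 had a median of 6112 UMIs and 33 Kupffer gene UMIs, against 2477 and 36 in the 1783, and whether they are droplets with more than 1 cell was not tested. The groups were formed on Mmp12, so these values are descriptions.

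The members' levels changed between neighbouring ranges of Kupffer gene UMIs in the early library. Gpnmb had 2509 CPM (2417 to 2604) in the 148 C1q barcodes with 0 Kupffer gene UMIs and 1628 CPM (1507 to 1757) in the 54 with 1 to 2. Just past the boundary it had 25.9 CPM (0.657 to 145) in the 13 barcodes with 3 to 4, from 1 UMI. It had 792 CPM (665 to 936) in the 64 with 5 to 9, 105 CPM (77.7 to 138) in the 302 with 10 to 19 and 64.6 CPM (58.5 to 71.3) in the 1543 with at least 20. Gpnmb was therefore not in steady decline over the ranges, and those with 3 to 9 UMIs hold few and shallow barcodes (medians of 1402 and 1278.5 UMIs). Fabp5 followed the same course, with 4082, 4186, 259, 2115, 245 and 145 CPM from the lowest range to the highest. Trem2 was lower from range to range or about level, with 701, 488, 337, 335, 144 and 141 CPM. The CPM of Mmp12 was highest in the middle ranges, with 1427 CPM at 3 to 4 UMIs and 1682 CPM at 5 to 9. It was 514 CPM at 0 and 258 CPM at 20 or more. The share of thinned barcodes with Mmp12 did not peak there. It was 21.6% at 0, 24.1% at 1 to 2, 15.4% at 3 to 4, 12.5% at 5 to 9 and 4.08% at 20 or more. In CPM, Lpl was lowest at 0 Kupffer gene UMIs (169 CPM) and was between 521 and 804 CPM in every range from 3 upwards. The 804 CPM at 3 to 4 came from 31 UMIs in 13 barcodes. By share of thinned barcodes, Lpl was lowest in that range (7.69%), against 15.5% at 0, 14.8% at 1 to 2 and 37.1% at 20 or more. At the other boundary, 48 early barcodes of no class had 1 or 2 C1q UMIs, and their Gpnmb (1137 CPM), Fabp5 (2794 CPM) and Lgals3 (3467 CPM) were above the levels of Kupffer-high barcodes.

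**Figure D2:**
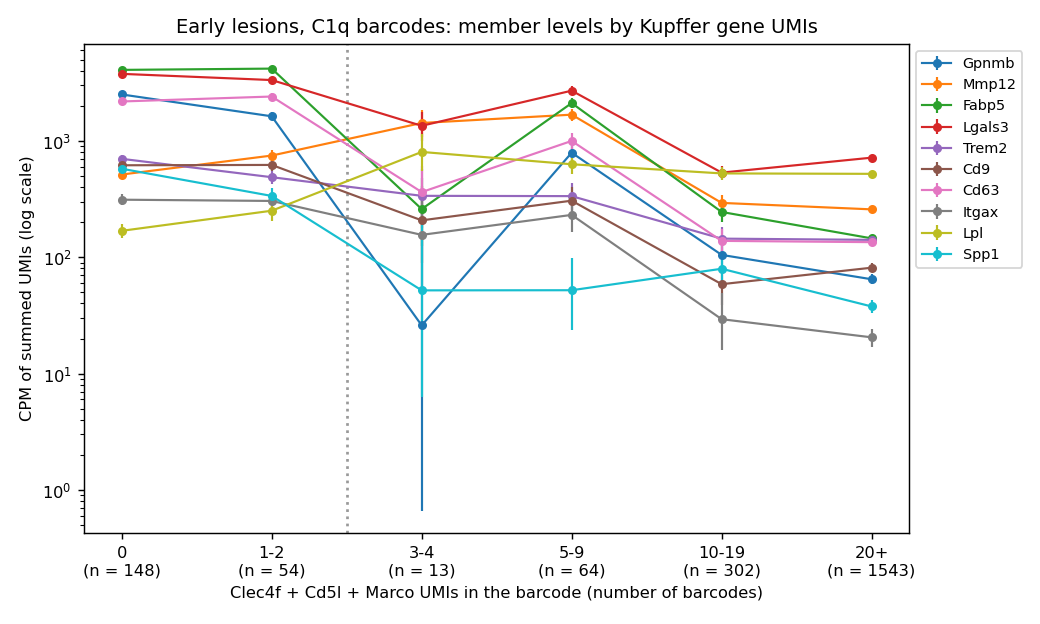
CPM of summed UMIs (log scale) of each member in early C1q barcodes, by the UMIs of Clec4f, Cd5l and Marco in the barcode, with the number of barcodes under each range; bars are exact Poisson 95% intervals and the dotted line separates Kupffer-low (left) from Kupffer-high barcodes. Gpnmb is highest at 0 Kupffer gene UMIs (2509 CPM), Mmp12 at 5 to 9 (1682 CPM) and Lpl at 3 to 4 (804 CPM, from 31 UMIs in 13 barcodes).

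Among the 45 pairs of members, Gpnmb and Fabp5 were the closest within both kinds of early C1q barcodes. In the 202 Kupffer-low barcodes thinned to 1000 UMIs, their Pearson correlation over log2(UMI + 1) was 0.551, and 41.6% of barcodes (34.7 to 48.7%) held a UMI of both, where the product of the single shares is 32.6%. In the 1922 Kupffer-high barcodes the correlation was 0.507, with both in 0.884% (0.516 to 1.41%) against a product of 0.0762%. Fabp5 with Lgals3 (0.477) and Fabp5 with Cd63 (0.424) came next in Kupffer-low barcodes. In Kupffer-high barcodes the next were Fabp5 with Cd63 (0.407) and Mmp12 with Cd63 (0.374). All barcodes of a class share 1 library, and many counts are 0 or 1, so weak correlations are not read.

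Within early Kupffer-low barcodes the correlations of Trem2 ranged from -0.101 with Spp1 to 0.150 with Fabp5, and with Gpnmb it was 0.145. Gpnmb-positive Kupffer-low barcodes had 694 CPM of Trem2 and 2381 CPM of Cd63, against 416 and 1614 CPM in Gpnmb-negative ones, at medians of 8130 and 5717 UMIs. Fabp5 differed more between them, at 4841 CPM in Gpnmb-positive and 752 CPM in Gpnmb-negative barcodes. Over all 45 pairs the median correlation was 0.134 in Kupffer-low and 0.101 in Kupffer-high barcodes, and 15 and 12 pairs reached 0.2. The correlations of Spp1 with the other 9 in Kupffer-high barcodes were between -0.0342 (Lgals3) and 0.000138 (Itgax).

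**Figure D3:**
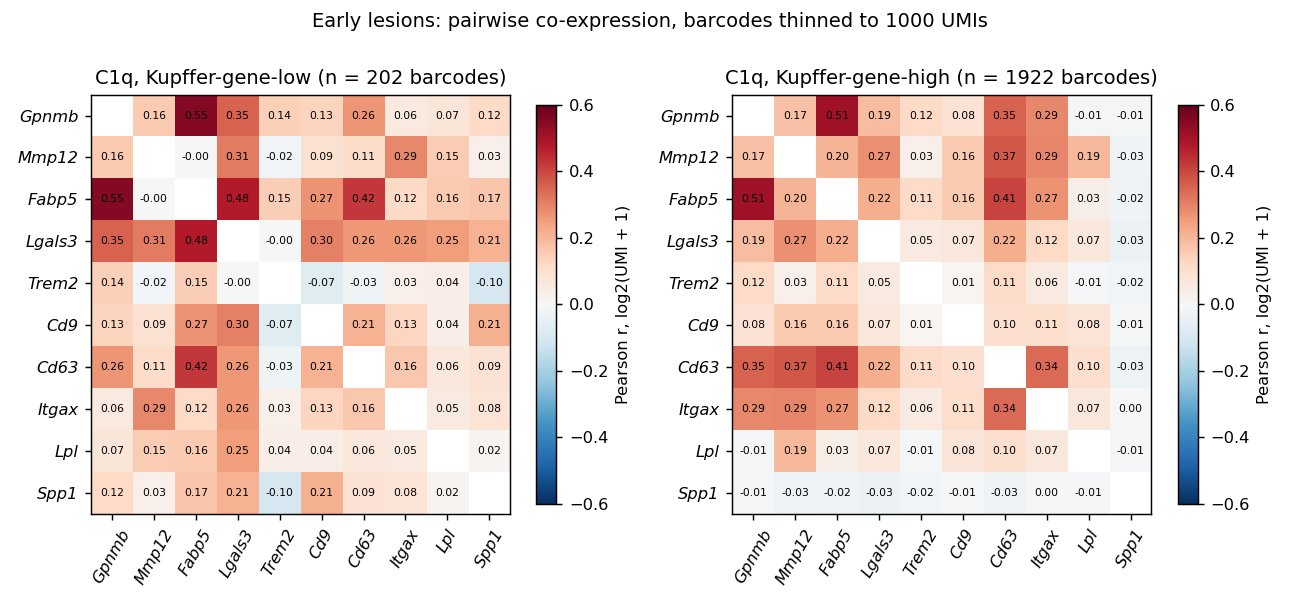
Pearson correlation of log2(UMI + 1) for each of the 45 pairs of members over early barcodes thinned to 1000 UMIs, in 202 Kupffer-low (left) and 1922 Kupffer-high C1q barcodes (right). Gpnmb with Fabp5 has the highest value on each side (0.551 and 0.507).

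Across all 2124 early C1q barcodes, the 10 genes whose pattern was most like the summed members, of 2784 ranked, were Fth1, Lyz2, Lgals1, Vim, Cd74, H2-Aa, Capg, Cstb, Cd68 and Cyba, with correlations from 0.483 to 0.317. Fth1 encodes the ferritin heavy chain and Lyz2 the lysozyme of myeloid cells. Within the 202 Kupffer-low barcodes the correlation of Fth1 was 0.592 and that of Lyz2 0.405. Cd74 and H2-Aa, of MHC class II antigen presentation, were at 0.0163 and -0.0111 there, so their likeness over all C1q barcodes was not seen within the Kupffer-low ones. In the 28 macroscopic C1q barcodes Fth1 was at 0.560, Lyz2 at 0.153 and Vim at 0.450.

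Spp1 and Cd9 were higher in duct barcodes than in any C1q barcodes, which for Spp1 goes against the name of the group. Spp1 had 512 CPM in Kupffer-low barcodes and 26238 CPM (25979.6 to 26498) in the 101 early duct barcodes, 51.2-fold (47.7 to 55.1) lower in the Kupffer-low ones. The duct barcodes held 84.7% of the early library's Spp1 UMIs. It was seen in 98.0% (98.0% unthinned) of thinned duct barcodes. Hepatocyte barcodes had 2324 CPM (2283 to 2366) of Spp1 in the macroscopic and 4879.9 CPM (4749 to 5014) in the early library, and in the early library 10 of the 67 were also duct barcodes. The 57 early hepatocyte barcodes outside the duct class had 1929 CPM. Spp1 was thus ordered duct, hepatocyte, Kupffer-low, T cell and Kupffer-high from high to low in early lesions, with overlapping intervals only for Kupffer-low and T cell barcodes. In T cell barcodes 90.6% of the Spp1 UMIs came from 1 barcode.

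The tetraspanins were also broad. Cd9 had 619 CPM in early Kupffer-low barcodes, against 867 CPM (821 to 916) in duct and 457 CPM (418 to 499) in hepatocyte barcodes. Cd63 had 2244 CPM in early Kupffer-low barcodes, against 578 CPM (541 to 618) in duct and 332 CPM (298 to 368) in hepatocyte barcodes. The intervals of Lpl overlapped between Kupffer-high C1q and hepatocyte barcodes of early lesions (526 and 470.2 CPM), and its level was low in duct barcodes at 19.9 CPM (13.4 to 28.4). Fabp5 had 149 CPM (131 to 170.3) in duct and 81.8 CPM (65.6 to 101) in hepatocyte barcodes of early lesions.

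Gpnmb, Mmp12, Trem2 and Itgax were close to 0 in epithelial barcodes. In early hepatocyte barcodes they had 1, 6, 0 and 1 UMIs, and in early duct barcodes 2, 2, 2 and 1. For Trem2 the count of 0 allows up to 2.79 CPM, so its level in Kupffer-low barcodes was at least 231-fold higher. Lgals3 was low there too, with 3656 CPM in Kupffer-low barcodes against 11.2 CPM in hepatocyte and 63.7 CPM in duct barcodes. Set against hepatocyte barcodes, 7 members were at least 2-fold higher and 2 lower in early Kupffer-low barcodes (16.9% and 32.8% of 9434 genes). Set against duct barcodes, 8 were higher and 1 lower (11.0% and 44.6% of 10328 genes).

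The members' levels in T cell barcodes came largely from few droplets. Early T cell barcodes had 448 CPM of Gpnmb, but 82 of its 105 UMIs were in 1 barcode. The 4 T cell barcodes with a Cd68 UMI had 2689 CPM of Gpnmb and 4628 CPM of Fabp5. The 72 with none had 5.11 CPM of Gpnmb (0.129 to 28.5), 30.7 of Fabp5 and 76.7 of Lgals3. For Gpnmb, Fabp5, Cd9 and Itgax the thinned share of Kupffer-high barcodes did not exceed that of all T cell barcodes. The CPM of all 4 genes was also lower in Kupffer-high than in all T cell barcodes. The latter had 448 CPM of Gpnmb, 790 of Fabp5, 243 of Cd9 and 89.6 of Itgax. Leaving out T cell barcodes with Cd68 turned this order, but Kupffer-high barcodes rich in the members were not left out in turn. Unthinned medians were 2565 UMIs in Kupffer-high barcodes and 2566.5 in the 72 T cell barcodes without Cd68. Against these 72, the CPM of all 4 genes was higher in Kupffer-high barcodes. Gpnmb was at 85.5 CPM with a UMI in 4.73% of Kupffer-high barcodes, against 5.11 CPM with a UMI in 1.39% of these T cell barcodes. Fabp5 was at 202 CPM with a UMI in 8.43% of Kupffer-high barcodes, against 30.7 CPM with a UMI in 5.56% of these T cell barcodes. Cd9 was at 86.0 CPM with a UMI in 11.4% of Kupffer-high barcodes, against 30.7 CPM with a UMI in 8.33% of these T cell barcodes, and Itgax at 27.1 CPM with a UMI in 3.90% of Kupffer-high barcodes, against 5.11 CPM with a UMI in 1.39% of these T cell barcodes. Set against all T cell barcodes, 9 members were at least 2-fold higher in early Kupffer-low barcodes and none lower (18.4% and 22.1% of 7215 genes), and Spp1 had a ratio of 1.25-fold (1.01 to 1.56). In the macroscopic library all 10 members were at least 2-fold higher in Kupffer-low than in T cell barcodes (29.3% of 6241 genes, with 17.1% lower), and 4 of the 24 Kupffer-low barcodes were also hepatocyte barcodes. Gpnmb, Mmp12, Trem2 and Itgax had 0 UMIs in the 20 macroscopic T cell barcodes, which allows up to 19.2 CPM.

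Other genes of the members' pathways, from lists chosen by function, did not differ in 1 direction in the early comparison of Kupffer-low with Kupffer-high barcodes. Of all 10512 genes measured in that comparison, 6.07% were at least 2-fold higher and 21.1% lower, with a median log2 ratio of -0.33. Of 20 measured lysosomal genes and MITF or TFE targets, 7 were at least 2-fold higher and 1 lower, with a median log2 ratio of 0.51. The higher ones included the cathepsins Ctsz, Ctss and Ctsk, the sphingolipid activator Psap, the lysosomal membrane protein Cd68 and the proton pump subunit Atp6v0d2. Ctss had 5831 against 2103 CPM and Atp6v0d2 75.1 against 14.7 CPM, Kupffer-low first. The lower one was the transcription factor Tfec (26.1 against 78.2 CPM), and Mitf had 38.5 against 30.3 CPM.

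Of 12 measured genes of cholesterol efflux and LXR targets, 6 were at least 2-fold lower in Kupffer-low barcodes and 1, Apoe, was higher, with a median log2 ratio of -0.96. The lower ones were the exporter Abca1 (71.9 against 318 CPM), the LXR alpha gene Nr1h3 (139.8 against 741 CPM), Mylip, Apoc1, Pltp and Scd2. Of 9 measured genes listed with the Trem2 receptor complex and its signalling, Ms4a7 (667 against 65.3 CPM) and the ligand Apoe (34643 against 13705 CPM) were higher. Treml4 and Clu were lower, and the adaptor Tyrobp was nearly equal (2288 against 2377 CPM). The median log2 ratio of these 9 genes was -0.09. Of 10 measured genes of fatty acid uptake and lipid droplets, Fabp4 (285 against 51.2 CPM) and Pparg were higher and the scavenger receptor Msr1 was lower (86.2 against 299 CPM). The lipid droplet coat gene Plin2 had 695 against 379.7 CPM, short of 2-fold, and the list's median log2 ratio was 0.32.

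Families of single members held both higher and lower genes, apart from the metalloproteinases. Among 6 measured fatty acid binding proteins, Fabp4 and Fabp5 were at least 2-fold higher, while Fabp7 (33.3 against 788 CPM) and the hepatocyte form Fabp1 were lower. Among 6 measured metalloproteinases and inhibitors, Mmp14 (129 against 10.2 CPM) and Mmp13 were higher and none was lower. Among 9 tetraspanins, Cd82 was higher beside Cd9 and Cd63, and Tspan4 was lower. Among 5 measured galectins, Lgals1 (555 against 81.1 CPM) was higher beside Lgals3, and Lgals8 was lower. Of 4 measured beta2 integrin genes, Itgax alone was higher and Itgal was lower (136 against 477 CPM). Of 7 measured osteopontin receptor genes, Itga5 was higher and Cd44, Itgav and Itga9 were lower.

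Markers of other cell types differed alongside the members. Of 11 Kupffer cell markers, 3 of which define the classes, 10 were at least 2-fold lower in Kupffer-low barcodes, and their summed level was 589.9 CPM in Kupffer-low and 21790.5 CPM in Kupffer-high barcodes. Of 9 measured monocyte markers, 5 (Ly6c2, Ccr2, Chil3, S100a4 and Lyz2) were higher and 2 lower. The monocyte sum was 36919 CPM in Kupffer-low and 8776 CPM in Kupffer-high barcodes, with Lyz2 at 36252 against 8139 CPM. Of 6 measured dendritic cell markers, 5 (the MHC class II genes H2-Aa, H2-Ab1, H2-Eb1 and Cd74, and Ciita) were higher. Of the other listed dendritic genes, Xcr1, Clec9a, Zbtb46 and Itgae had 0 UMIs in Kupffer-low barcodes, and Cd209a, Flt3 and Ccr7 had 6, 5 and 7. Of 9 macrophage markers, 1 (Cd68) was higher and 3 were lower, among them Adgre1 and Mertk. Within Kupffer-low barcodes thinned to 1000 UMIs, Fabp5 and Gpnmb correlated with the monocyte sum at 0.430 and 0.318 and with the dendritic sum at 0.0787 and -0.129. Most of the monocyte sum was Lyz2, and most of the dendritic sum was Cd74 and H2-Aa, so these correlations reflect mainly those genes. The part of these markers in the members' levels was not tested.

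Between stages, Gpnmb had the largest fold difference of the 10 members in Kupffer-low C1q barcodes. In the macroscopic library 4 of the 24 Kupffer-low barcodes were also hepatocyte barcodes. They held 447834 of the 831770 UMIs, and 3 of the 4 had only 3 or 4 C1q UMIs. The comparison is therefore given in barcodes of 1 class only, 20 macroscopic (median 21377 UMIs) and 200 early (median 7545). The 20 still include a barcode with 3 C1q UMIs of 14223 and another with 9 of 16135. In barcodes of 1 class, 1 member passed 2-fold upwards and 2 passed it downwards in macroscopic lesions, against 9.11% and 9.88% of 7264 measured genes. With the 4 barcodes kept, 2 members were higher and 8 lower (23.0% and 12.7% of 8553 genes). With 1 library each, animals, preparation, sex and stage cannot be told apart.

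Gpnmb had 151 CPM (115 to 195) in macroscopic and 2243 CPM (2168 to 2319.6) in early Kupffer-low barcodes, 14.8-fold (11.5 to 19.6) lower. It was seen in 4 of 20 macroscopic barcodes, with 31, 20, 5 and 2 UMIs, and in 155 of 200 early barcodes. The macroscopic barcodes were the deeper. The median barcode had 0 CPM in macroscopic and 1036 CPM in early lesions, and the highest had 869.8 and 12594 CPM. Every macroscopic barcode was therefore under the early median.

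Lpl was the member higher in macroscopic Kupffer-low barcodes, at 391 CPM (331 to 458) against 189 CPM (168 to 212) in early ones, 2.07-fold (1.69 to 2.53) higher. It was seen in 14 of 20 macroscopic and 78 of 200 early barcodes, the macroscopic ones being deeper. Spp1 had 154 CPM (117 to 198) in macroscopic and 515 CPM (479 to 552) in early barcodes of 1 class, 3.35-fold (2.57 to 4.44) lower. The difference lay in few barcodes: Spp1 was seen in 8 of 20 macroscopic and 64 of 200 early barcodes, with a median of 0 CPM in both. In 1 macroscopic barcode were 40 of the 59 Spp1 UMIs, and in 1 early barcode 190 of the 780. With the 4 hepatocyte barcodes kept, its direction turned, to 2168 CPM in macroscopic and 512 CPM in early Kupffer-low barcodes, 4.23-fold (3.89 to 4.61) higher. Those 4 barcodes alone had 3894 CPM of Spp1, 149.6 of Lgals3 and 2.23 of Trem2.

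The other 7 members differed less than 2-fold between stages in barcodes of 1 class. Fabp5 had 2052 CPM in macroscopic and 4057 CPM in early barcodes, 1.98-fold (1.84 to 2.13) lower. Trem2 had 346 and 644 CPM in macroscopic and early barcodes, 1.86-fold (1.55 to 2.25) lower. Cd9, Itgax, Lgals3 and Cd63 were 1.85, 1.85, 1.53 and 1.51-fold lower in macroscopic lesions. Mmp12 had 563 CPM (490.1 to 643) in macroscopic and 571 CPM (534 to 610.3) in early barcodes, and the interval of the ratio, 0.845 to 1.15, includes no difference. In the macroscopic library 110 of its 216 UMIs were in 1 barcode. Over the 10 members the median log2 ratio was -0.89, against 0.07 over all measured genes.

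Markers of other cell types also differed between stages in these 20 macroscopic and 200 early barcodes. Of 4 measured endothelial markers all 4 were at least 2-fold higher in macroscopic barcodes, among them Clec4g, a lectin of liver sinusoidal endothelium (190.1 against 5.28 CPM), and the endothelial receptor gene Kdr (44.3 against 6.60 CPM). Their sum was 367 CPM in macroscopic (barcodes from 0 to 7871 CPM) and 31.7 CPM in early barcodes (0 to 2610 CPM). These sums came from 141 and 48 UMIs. Most of the 141 lay in 1 macroscopic barcode, that of 16135 UMIs at 7871 CPM, which had 9 C1q UMIs. The higher macroscopic sum therefore rests mainly on that barcode. The median barcode had 0 CPM in both libraries, so most barcodes had no UMI of the listed endothelial markers. Of 6 measured hepatocyte markers 4 were higher, with Alb at 175 against 73.9 CPM, and 1 was lower, and their sum was 987 CPM in macroscopic (barcodes from 0 to 3469.8 CPM) and 609.9 CPM in early barcodes (0 to 3465 CPM). Of 8 measured monocyte markers, Ccr2 (320.4 against 103 CPM) and Plac8 were higher, while Ly6c2, F13a1, Fn1 (7.81 against 207 CPM) and Lyz2 (13770.5 against 36303 CPM) were lower. The monocyte sum was 14369.6 CPM in macroscopic (barcodes from 0 to 40249.8 CPM) and 36974 CPM in early barcodes (0 to 119395 CPM). Of 7 measured Kupffer cell markers 1 was higher and 4 were lower, with a sum of 239.6 CPM in macroscopic (barcodes from 0 to 1116 CPM) and 593 CPM in early barcodes (0 to 5925 CPM). None of the 5 measured dendritic cell markers passed 2-fold. The part of these markers in the members' stage differences was not tested.

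**Figure D4:**
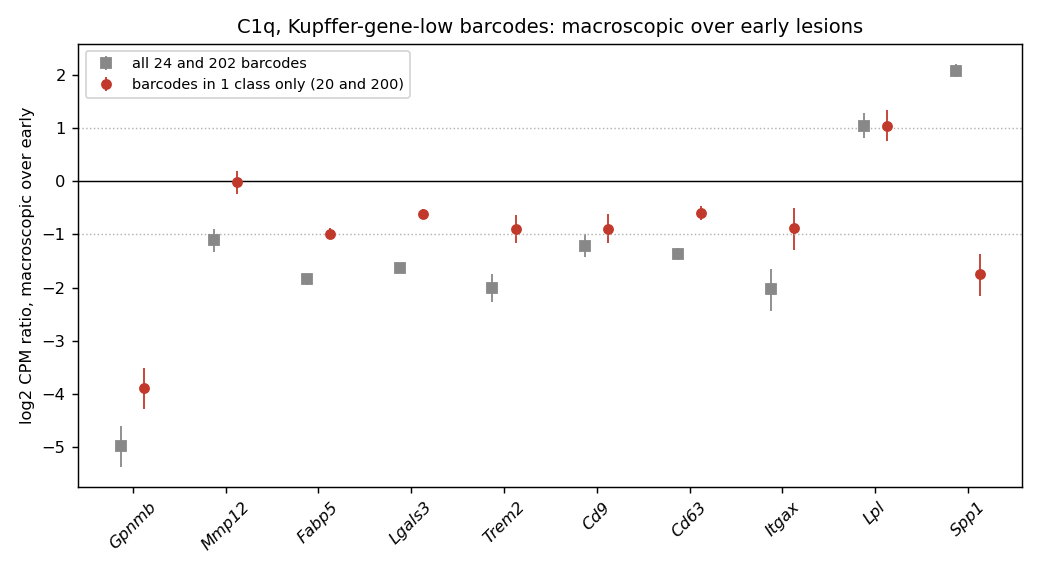
log2 CPM ratio of each member, macroscopic over early lesions, in Kupffer-low C1q barcodes; squares use all 24 and 202 barcodes, circles the 20 and 200 barcodes of 1 class only, bars are exact 95% intervals for counting error and dotted lines mark 2-fold. Spp1 lies at 2.08 with all barcodes and at -1.74 with barcodes of 1 class, and Gpnmb is lowest with both.

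**Figure D5:**
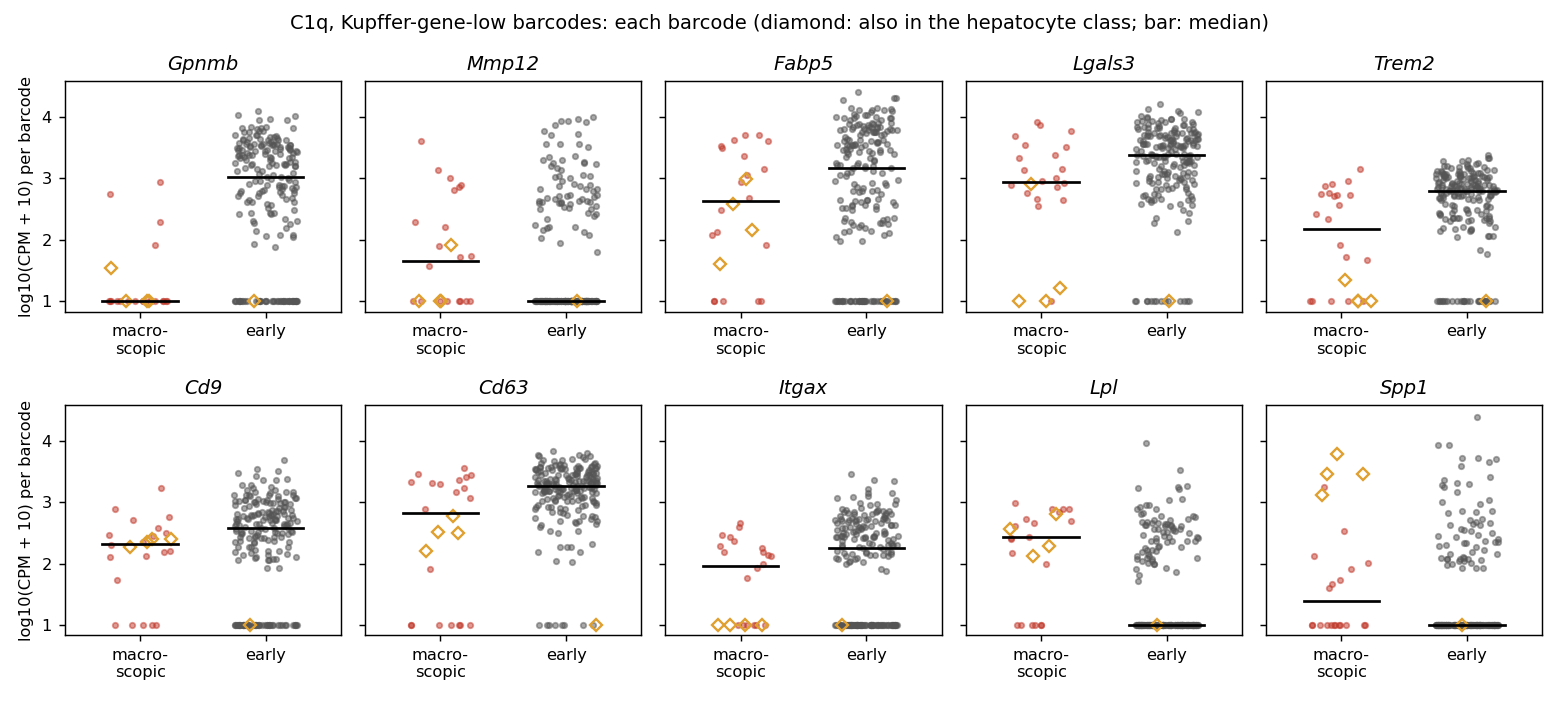
Each Kupffer-low C1q barcode's CPM on a log10(CPM + 10) scale, macroscopic (left, 24 barcodes) and early (right, 202) in each panel; diamonds are barcodes also in the hepatocyte class and the bar is the median. Gpnmb has UMIs in 5 of the 24 macroscopic barcodes and in 156 of the 202 early ones, and the highest macroscopic Spp1 values are diamonds.

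The 4 macroscopic Kupffer-high C1q barcodes were too few for a ratio and are given singly. Gpnmb had 24 UMIs in the barcode of 24873 UMIs, 3 in that of 30791, and 0 in those of 41515 and 1123. The barcode with 24 Gpnmb UMIs also had 47 of Fabp5, 36 of Cd63, 21 of Trem2 and 7 of Lpl, and only 10 Kupffer gene UMIs. The barcode of 41515 UMIs had 453 Kupffer gene UMIs, 48 of Lpl, 27 of Lgals3 and 0 of Gpnmb, Fabp5 and Cd63. Within the 24 macroscopic Kupffer-low barcodes thinned to 1000 UMIs, Fabp5 and Lgals3 had the highest correlation of the 45 pairs (0.647), and Lgals3 and Spp1 the lowest (-0.439); the 4 hepatocyte barcodes are among the 24.

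In hepatocyte barcodes 6 members were measured between stages, and Fabp5 was the 1 member at least 2-fold higher in macroscopic lesions. It had 338 CPM (323 to 354) in macroscopic and 81.8 CPM (65.6 to 101) in early hepatocyte barcodes, 4.14-fold (3.34 to 5.18) higher, where 9.93% of 10544 genes passed 2-fold upwards and 17.7% downwards. It was seen in 34.0% (90.3% unthinned) of thinned macroscopic and 7.46% (46.3% unthinned) of thinned early hepatocyte barcodes. In the macroscopic library, 58 of the 103 hepatocyte barcodes had under 0.05% of UMIs from the nuclear RNA Malat1. These had 555 CPM of Fabp5, against 260 CPM in the other 45. Spp1 had 2324 and 4879.9 CPM in macroscopic and early hepatocyte barcodes, 2.10-fold (2.03 to 2.17) lower, but 2064 and 1966 CPM in barcodes of 1 class. Cd9 was 1.79-fold (1.61 to 1.99) lower and Lpl 1.88-fold (1.69 to 2.08) lower in macroscopic lesions (Lpl 2.18-fold, 1.96 to 2.43, in barcodes of 1 class), and Cd63 had 317 and 332 CPM. Set against hepatocyte barcodes of its own library, the macroscopic Kupffer-low class was at least 2-fold higher in 7 members and lower in none (12.1% and 9.37% of 10608 genes), with the 4 shared barcodes counted in both classes. In barcodes of 1 class 7 members were higher and 1, Spp1, was lower (18.8% and 29.1% of 10322 genes). Spp1 then had 154 CPM in Kupffer-low and 2064 CPM in hepatocyte barcodes, 13.4-fold (10.4 to 17.7) lower, against 1.07-fold (1.02 to 1.13) lower with the shared barcodes counted.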

How the data were processed

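Single-cell RNA was measured in 2 libraries, 1 per stage. Per the file headers, the deposited matrices are Cell Ranger output of raw UMI counts (1 value for each gene in each barcode). The submitters' processing notes give version 3.0.2 and also name mm10 and Seurat 2.3.0, with no role for Seurat. The annotation used for counting and any barcode filter are not given in the sources used here.

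Barcodes with at least 1000 UMIs were kept and classed by the UMI rules in the text. Counts were summed per library and class and expressed as CPM, with exact Poisson 95% intervals; shares have exact Clopper-Pearson intervals and CPM ratios exact conditional binomial ones. No p-value was computed. In these sums 1 UMI was 1.20 CPM for macroscopic and 0.653 CPM for early Kupffer-low C1q barcodes. A gene was measured with at least 20 UMIs over a pair of sums, and called at 2-fold. A sum of 0 was set to 3 UMIs, which makes the fold a bound. No ratio used a class of under 10 barcodes. Barcodes near the limits were few: in the early library 19 had 2 and 11 had 3 C1q UMIs, and of C1q barcodes 6 had 2 and 5 had 3 Kupffer gene UMIs. Thinning used random seed 0. No doublet caller was run; barcodes in more than 1 class were counted in each class, and results were repeated without them. The steps were tested on simulated data.

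The members and the gene lists were chosen with earlier results of these data known. Named genes were all 10 members, members of the chosen lists and the 10 genes most correlated with the summed members (seen in at least 5% of thinned barcodes). Single values of some list genes are not reported here. Promoter windows are RefSeq's (GRCm38.p6). Lists of hepatocyte, cholangiocyte, T cell, endothelial, fibroblast, neutrophil and B cell markers had summed levels of 637, 517 (nearly all Spp1), 72.5, 31.4, 5.88, 83.6 and 86.9 CPM in early Kupffer-low barcodes. In early Kupffer-high barcodes they had 1152, 49.5, 10.0, 607, 41.9, 90.4 and 22.9 CPM, in the same order. Python 3.11.15, NumPy 2.4.6, SciPy 1.17.1, pandas 2.3.3 and matplotlib 3.10.9 were used.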

Additional observations from a re-analysis of the deposited data

Results flagged for a closer look

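Fabp5 and Lpl differed between stages in opposite directions in C1q and in hepatocyte barcodes, all in barcodes of 1 class only. The log2 ratio of macroscopic over early lesions for Fabp5 was -0.98 in Kupffer-low C1q barcodes and 2.10 in hepatocyte barcodes. For Lpl it was 1.05 in Kupffer-low C1q barcodes and -1.12 in hepatocyte barcodes. The Lpl log2 ratio of Kupffer-low C1q over hepatocyte barcodes was likewise 0.72 in the macroscopic and -1.45 in the early library. The difference between the classes or libraries was not tested in any of these, since each stage has 1 library.

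Barcodes under 1000 UMIs, which enter no comparison, also held the members. Summed over the 10 genes, the 15 macroscopic barcodes of this kind had 3149 CPM (2193 to 4379) from 35 UMIs, above the 269.9 CPM that 3 UMIs would give. The 601 early ones had 1424 CPM (1314 to 1541), of which Lpl gave 207 and Lgals3 142 of the 619 UMIs. T cell barcodes had 449 CPM in the macroscopic and 3099 CPM in the early library, so the early value was below that of T cell barcodes. The early T cell value itself came from few droplets. Thinned to 1000 UMIs, 64 of the 76 early T cell barcodes had no UMI of any member.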

How the results depend on the processing

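Each member's ratio was recomputed under 13 alternatives, of which leaving out the barcode richest in the member was chosen after seeing the data. Of 983 recomputed log2 ratios, 622 stayed within the counting interval, 356 moved beyond it and 5 turned in direction. In the early comparison of Kupffer-low with Kupffer-high barcodes, the 9 members past 2-fold stayed past it in the same direction under all 13.

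The stage comparison of Kupffer-low barcodes was the least stable. Its log2 ratio for Spp1 turned to -1.74 without barcodes of more than 1 class and -1.52 with gates set as shares of UMIs, and that for Mmp12 turned to 0.22 with such gates and 0.17 when thinned to 3000 UMIs. The 2 members higher there became 0 without the deepest 5% of barcodes and with equal weight per barcode. They became 1 without barcodes of more than 1 class, with at least 6 C1q UMIs, with gates as shares, when thinned to 1000 or 3000 UMIs, relative to the median gene, and without the richest barcode. Spp1 in hepatocyte barcodes turned to 0.070 without barcodes of more than 1 class. Thinned to 1000 UMIs, 6 members reached 20 UMIs against hepatocyte and 4 against T cell barcodes in the macroscopic library, and 4 were higher in Kupffer-low barcodes in each comparison; of the members higher unthinned, 5 of the 5 and 6 of the 8 with a ratio stayed past 2-fold. Thinning to 3000 raised the pairs of members with a correlation of at least 0.2 to 24. The causes were not tested.

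No ratio of Kupffer-low over Kupffer-high barcodes was computed for the macroscopic library, which has 4 of the second kind. No paired analysis was possible because each stage has 1 library. The macroscopic library has 24 Kupffer-low and 20 T cell barcodes.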

Other observations

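In the early library, 269 barcodes met none of the class rules, and they held 30.3% of the Itgax, 26.5% of the Fabp5 and 17.9% of the Gpnmb UMIs. Of these barcodes 97 had a UMI of Cd68, and their median C1q count was 0. Their Fabp5 was 4268 CPM and their Cd9 1065 CPM, against 4109.6 and 619 CPM in Kupffer-low C1q barcodes. Trem2 was 232 CPM in the 97 and 644 CPM in Kupffer-low C1q barcodes, and Gpnmb was 1362 and 2273 CPM. Itgax was 407 CPM in the 97, above the 310.3 CPM of Kupffer-low C1q barcodes. In the macroscopic library 8 barcodes of no class had a Cd68 UMI, with 0 Gpnmb and 0 Trem2 UMIs.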
